A study of Mus musculus with 15 samples.

Results

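The MYC, MAX and MXD network was examined through its mRNAs in mouse T cell leukemia lines. Its 9 members, *Myc*, *Mycn*, *Max*, *Mxd1*, *Mxd3*, *Mxd4*, *Mxi1*, *Mnt* and *Mga*, were chosen by name as the MYC and MAX proteins of the network and the MAX partners that oppose MYC, and not by their values. Of these, 8 were found among the 12545 genes of the deposited table, and *Mycn* was not analysed here.

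MYC binds DNA as a pair with MAX, at the sequence CACGTG (the E-box), and raises transcription of genes for ribosome production, nucleotide synthesis and cell growth. MAX is also the partner of MXD1, MXI1, MXD3, MXD4 and MNT, which occupy the same sites and repress them through the SIN3 corepressor, and of MGA, a very large protein that belongs to a Polycomb repressor complex. In many T cell leukemias *Myc* is a direct target of Notch signaling, whereas for E2a-/- leukemias the study names *Lef1* as the gene under Notch1. In mouse thymic lymphomas *Myc* is often raised by an extra copy of chromosome 15.

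The table gives RNA-seq values in CPM, a gene's reads scaled to the total assigned to genes, for 15 lines with 1 library each. Of these, 8 are DKO lines (E2a-/-LefF/F LckCre+, with *Lef1* alleles that lose the DNA-binding domain in T lineage cells where the *Lck* promoter drives Cre) and 7 are E2a-/- lines, so that every line lacks E2A and the groups differ by *Lef1*. The mice were on the FVB/NJ strain, and each line was grown out of thymus cells of a moribund mouse, untreated. Ages of the mice are not given in the labels. A line is a selected culture of 1 leukemia, and the labels name no batch. Between 4847970 (DKO79.9) and 21681586 (SKO95) reads fell on the listed genes, with a median of 18817468. The lowest number of reads behind any member value was 67, for *Mxi1* in DKO79.9. All 13 T lineage markers were listed, with summed levels of 2068 to 4999 CPM, while 0 of 7 B lineage markers were. Of 9 myeloid markers 2 were listed, at 5.48 to 14.0 CPM summed, and of 6 erythroid markers only *Epor*, at 0.115 to 10.7 CPM. Of 7 stromal and endothelial markers 4 were listed, with sums of 146 to 1190 CPM, most of it from *Col1a2* (0 to 947 CPM), *Pdgfrb* (1.91 to 411 CPM) and *Pecam1* (44.9 to 157.4 CPM), and their part in the results below was not tested. *Col1a1*, *Col3a1* and *Cdh5* were not among the listed genes. One line labelled E2a-/-, SKO132, stood apart, with *Lef1* at 59.0 CPM against 668 to 1558 in the other E2a-/- lines and 103 to 210 in DKO lines, and with *Notch1* at 31.3 CPM against 830 to 2266 in the other lines. Several results that rest on SKO132 are given with and without it.

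The members lie on 8 chromosomes. In GRCm38, *Myc* occupies chr15:61985391-61990374 on the plus strand, *Max* chr12:76937269-76962201 on the minus strand and *Mga* chr2:119897228-119969581 on the plus strand. *Mxd1* is at chr6:86647042-86669161, *Mxd3* at chr13:55325168-55329823 and *Mxd4* at chr5:34173883-34187720, all on the minus strand, while *Mxi1* at chr19:53310518-53375810 and *Mnt* at chr11:74830920-74845725 are on the plus strand. Exons of *Mxd3* share 105 bases with *Prelid1* on the opposite strand, those of *Mxd4* share 514 bases with the antisense gene *Gm42846*, and those of *Mxi1* share 194 bases with *Gm10197*. Whether the counting used strand is not given in the sources used here, so reads from those bases cannot be told apart.

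Since the network's proteins bind the E-box, the promoters of its own genes were searched for it. RefSeq promoters (GRCm38.p6, 250 bases before to 50 after the annotated start) were at hand for *Mycn* and 7 of the 8 members analysed, in 10 entries. The member without an entry was *Myc*, so its promoter was not searched for any of the sequences below. CACGTG, which reads the same on both strands, was in 3 of the 10, those of *Max*, *Mxd4* and *Mnt*, and in 7.15% of all 32851 promoters. The 3 sequences follow, in lower case with the E-box in capitals.
Max promoter, chr12:76962199-76962498, minus strand: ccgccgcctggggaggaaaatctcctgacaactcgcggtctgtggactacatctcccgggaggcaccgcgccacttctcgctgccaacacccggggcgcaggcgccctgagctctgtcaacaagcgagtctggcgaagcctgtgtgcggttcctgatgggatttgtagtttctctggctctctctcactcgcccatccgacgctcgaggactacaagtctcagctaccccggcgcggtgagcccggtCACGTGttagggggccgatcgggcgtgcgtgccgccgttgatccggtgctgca
Mxd4 promoter, chr5:34187661-34187960, minus strand: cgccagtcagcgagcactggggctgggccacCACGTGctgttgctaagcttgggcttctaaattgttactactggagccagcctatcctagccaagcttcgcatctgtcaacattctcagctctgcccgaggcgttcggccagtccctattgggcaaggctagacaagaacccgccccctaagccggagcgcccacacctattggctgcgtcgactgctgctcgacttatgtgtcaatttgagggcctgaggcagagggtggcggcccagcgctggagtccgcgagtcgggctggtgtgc
Mnt promoter, chr11:74830674-74830973, plus strand: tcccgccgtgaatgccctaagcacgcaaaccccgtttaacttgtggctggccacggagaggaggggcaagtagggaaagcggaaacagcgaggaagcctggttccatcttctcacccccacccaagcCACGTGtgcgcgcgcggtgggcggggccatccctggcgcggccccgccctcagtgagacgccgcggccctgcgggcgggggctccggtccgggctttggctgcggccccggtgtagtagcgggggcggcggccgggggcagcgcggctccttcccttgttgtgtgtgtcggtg
The E-box begins at position -3 from the annotated start in *Max*, at -219 in *Mxd4* and at -123 in *Mnt*. CTTTGA, a core sequence of LEF1 and TCF1 sites searched on both strands, was found in 1 of the 10 entries, that of *Mycn*, and in 16.0% of all promoters. CAGCTG, an E-box bound by E proteins such as E2A, was found in that of *Mga* only and in 16.3% of all. A match is a description of the letters, not of binding.

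*Myc*, the activator of the network, was its most abundant mRNA in every line, and its level differed less between the genotypes than among the lines. In DKO lines *Myc* ranged from 306 CPM (DKO79.9) to 565 CPM (DKO102.4), with a median of 391 CPM, and in E2a-/- lines from 260 CPM (SKO95) to 435 CPM (SKO137.1), with a median of 342 CPM. The ranges overlap, and 3 of 8 DKO lines, DKO102.4, DKOTu3 and DKO170.2, lay above all E2a-/- lines. The means were 404 ± 86.6 CPM (SD, n = 8) and 342 ± 51.1 CPM (SD, n = 7). On the log2(CPM + 1) scale the difference was 0.23 with a standard error of 0.13 and a 95% interval of -0.06 to 0.51, a ratio of 0.961 to 1.42 (limma, adjusted p = 0.583 over all 12545 genes, two-sided exact permutation p = 0.127). As these are bulk cultures, fewer cells with an mRNA and less of it per cell cannot be told apart here.

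*Max*, the shared partner, was the steadiest member. It lay between 101 and 131 CPM in DKO lines (median 111 CPM) and between 86.8 and 132.1 CPM in E2a-/- lines (median 123 CPM). The means were 114 ± 11.3 CPM (SD, n = 8) and 114 ± 17.7 CPM (SD, n = 7), and the interval of the log2 difference, -0.20 to 0.23, holds differences of up to a ratio of 1.17. Among the 8822 genes that averaged 10 CPM or more, 12.2% had a smaller SD of log2(CPM + 1) over the 15 lines than *Max*.

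**Figure D1:**
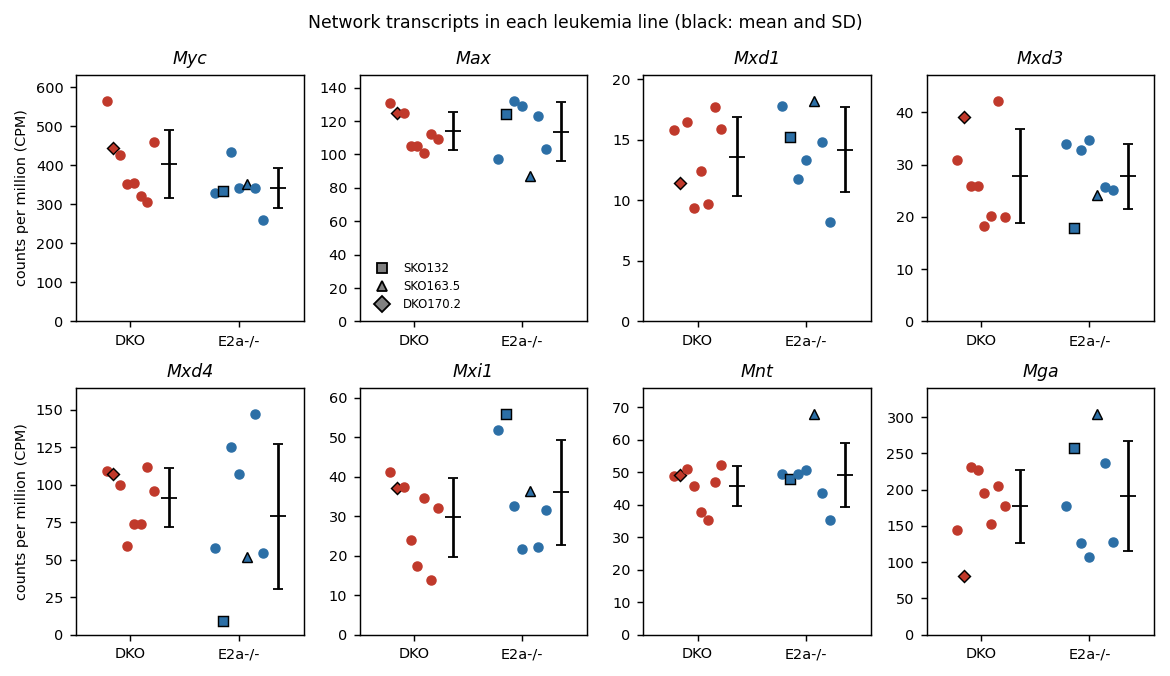
Each panel plots the CPM of 1 network member in the 8 DKO (red) and 7 E2a-/- (blue) lines, 1 point per line, with the mean and SD in black; SKO132, SKO163.5 and DKO170.2 have their own symbols. The groups overlap for all 8 members, and *Mxd4* in SKO132 lies at 9.49 CPM, under all other lines.

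The MXD proteins antagonize MYC, and some of them are known to rise as cells stop dividing. Their mRNAs varied more. *Mxd4* had the widest range of the members over all 15 lines, and 88.6% of the 8822 genes had a smaller SD. That range rests on SKO132, and the SD without that line was not computed. Over the other lines *Mxd4* ran from 5.72 to 7.21 on the log2(CPM + 1) scale, a narrower span than the 6.36 to 8.25 of *Mga*. In DKO lines *Mxd4* lay between 59.4 CPM (DKO241) and 112 CPM (DKO79.9), with a median of 97.8 CPM. In E2a-/- lines it ran from 9.49 CPM (SKO132, 172 reads) to 147 CPM (SKO186.5), with a median of 57.8 CPM. SKO132 was far below the other lines, whose lowest was SKO163.5 at 51.7 CPM, and the remaining E2a-/- lines split into SKO163.5, SKO95 and SKO115.2 at 51.7 to 57.8 CPM and SKO156.6, SKO137.1 and SKO186.5 at 107 to 147 CPM. All 8 DKO lines were above the E2a-/- median, yet 0 were above all E2a-/- lines. The log2 difference was 0.54 with a 95% interval of -0.39 to 1.46 (limma, adjusted p = 0.693, exact permutation p = 0.301), and it was 0.11 when SKO132 was left out. On recovered reads it was 0.23 in both edgeR tests and 0.22 in DESeq2.

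*Mxd1*, a member linked to differentiation, was the lowest antagonist per length of merged exons. It ranged from 9.40 to 17.7 CPM in DKO lines (median 14.1 CPM) and from 8.25 to 18.2 CPM in E2a-/- lines (median 14.8 CPM). Its log2 difference was -0.05 (95% interval -0.45 to 0.35). *Mxd3*, the family member whose expression is known to go with S phase, ranged from 18.2 to 42.2 CPM in DKO lines (median 26.0 CPM) and from 17.8 to 34.7 CPM in E2a-/- lines (median 25.8 CPM), and the group means were both 27.8 CPM. Its log2 difference was -0.03 (95% interval -0.45 to 0.40). The SD of *Mxd3* on that scale was 0.44 in DKO and 0.33 in E2a-/- lines, above the estimated difference. The interval holds differences as large as these SDs.

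*Mxi1*, also known as MXD2, ranged from 13.8 CPM (DKO79.9) to 41.3 CPM in DKO lines, with a median of 33.2 CPM, and from 21.7 to 55.8 CPM (SKO132) in E2a-/- lines, with a median of 32.7 CPM. DKO79.9 and DKO548 were below all E2a-/- lines, while SKO132 and SKO115.2 were above all DKO lines. The log2 difference was -0.28 (95% interval -0.84 to 0.28, limma adjusted p = 0.746), and it was -0.16 without SKO132 and -0.14 without DKO79.9. SKO132 thus had the lowest *Mxd4* and the highest *Mxi1* of the 15 lines, with *Myc* in the middle of the E2a-/- lines at 334 CPM.

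*Mnt*, the broadly expressed antagonist that is present whether or not cells divide, was second to *Max* in steadiness, with 27.3% of the 8822 genes less variable. It lay between 35.4 and 52.2 CPM in DKO lines (median 48.0 CPM) and between 35.4 and 67.9 CPM (SKO163.5) in E2a-/- lines (median 49.4 CPM), a log2 difference of -0.09 (95% interval -0.36 to 0.18), which was -0.01 without SKO163.5 and -0.16 without SKO95. *Mga* ranged from 81.4 CPM (DKO170.2) to 232 CPM in DKO lines, with a median of 187.0 CPM, and from 107 CPM (SKO156.6) to 304 CPM (SKO163.5) in E2a-/- lines, with a median of 177 CPM. Its log2 difference was -0.07 (95% interval -0.62 to 0.48), and it was 0.01 without SKO132. SKO163.5 had the highest *Mxd1*, *Mnt* and *Mga* and the lowest *Max* of the 15 lines.

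None of the 8 members passed limma's adjusted p of 0.01, where 0.0478% of all genes did, and 0 of 8 had an unadjusted p under 0.05, where 10.2% of all genes did. On whole reads recovered from the CPM, 0 of 8 members were called by edgeR's quasi-likelihood test (0.00797% of all genes), by its likelihood ratio test (0.670%) or by DESeq2 (1.41% of 12543). With so few genes called at all, 0 of 8 is what the background share gives. The members' log2 differences had 3 values above 0 and 5 below, with a median of -0.04, beside a median of -0.02 over all genes. The intervals leave room for a ratio of up to 1.42 for *Myc* and 2.75 for *Mxd4*, so equal levels are not shown.

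**Figure D2:**
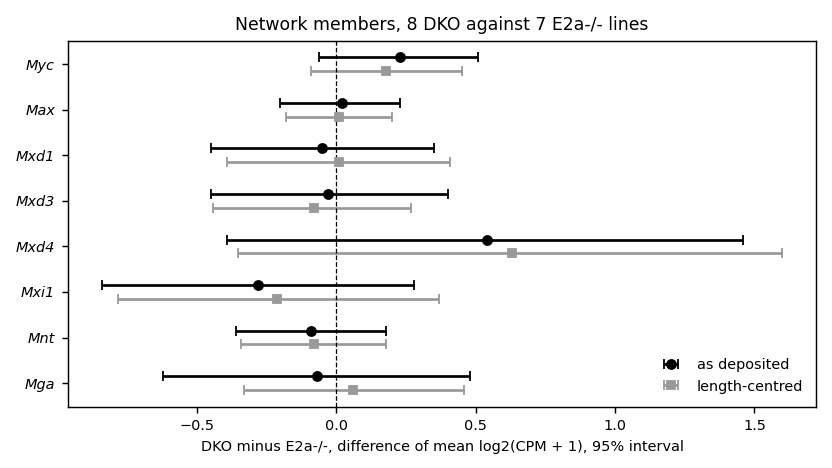
Points give DKO minus E2a-/- differences of mean log2(CPM + 1) for each member with 95% intervals, from the values as deposited (black circles) and from values centred on genes of like exonic length (grey squares). All 16 intervals include 0; that of *Mxd4* is the widest and that of *Max* among the narrowest.

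To compare members with each other, levels were divided by the length of each gene's merged exons, in CPM per kb. *Myc* was at 138 ± 28.3 CPM per kb (SD, n = 15) and had the highest level in all 15 lines. *Max* followed at 31.6 ± 3.91 CPM per kb and was second in all 15. *Mga* at 12.0, *Mxd3* at 11.7, *Mnt* at 10.3 and *Mxd4* at 10.1 CPM per kb did not separate, since *Mga* was above *Mxd3* in 8 of 15 lines, *Mxd3* above *Mnt* in 10 and *Mnt* above *Mxd4* in 6. *Mxi1* followed at 4.79 ± 1.72 CPM per kb, under *Mxd4* in 13 lines, and *Mxd1* was at 1.96 ± 0.460 CPM per kb, under *Mxi1* in 14. With the gene width that the table lists, which counts exons shared by transcripts more than once, *Mxd4* was the third at 17.0 and *Mga* the seventh at 2.48 CPM per kb. *Max* then had a rank of 2 or 3 and *Mxd4* ranks from 2 to 8, so the order below *Myc* depends on the length used.

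*Myc* exceeded the summed antagonists (*Mxd1*, *Mxd3*, *Mxd4*, *Mxi1*, *Mnt* and *Mga*) in every line on this scale. The ratio was 2.98 ± 0.568 (SD, n = 8) in DKO lines, from 1.91 in DKO79.9 to 3.84 in DKO102.4 with a median of 3.01, and 2.46 ± 0.286 (SD, n = 7) in E2a-/- lines, from 2.16 to 2.96 with a median of 2.47. The ranges overlap. With the listed width the ratios were 0.931 ± 0.164 and 0.835 ± 0.192, so whether *Myc* exceeds its antagonists depends on the length as well. *Max* amounted to 0.162 ± 0.0154 of the sum of all its partners in DKO lines and 0.180 ± 0.0306 in E2a-/- lines, *Mycn* not counted, and with the listed width to 0.313 ± 0.0258 and 0.345 ± 0.0720. These are mRNA levels and say nothing of the proteins.

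**Figure D3:**
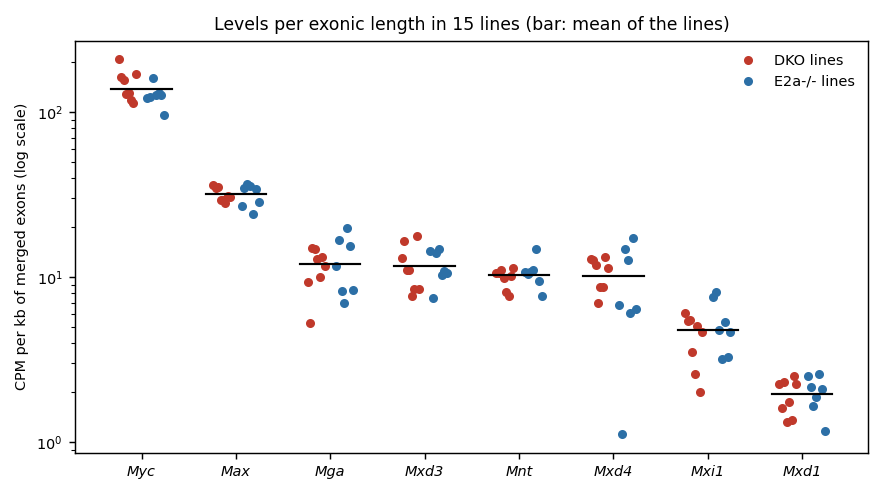
The vertical axis gives CPM per kb of merged exons on a log scale for each member, 1 point per line (DKO red, E2a-/- blue), with the mean of the 15 lines as a bar. *Myc* and *Max* stand above all other members in each line, and *Mga*, *Mxd3*, *Mnt* and *Mxd4* overlap around 10.1 to 12.0.

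The study reports similar *Myc* mRNA by qRT-PCR in E2a-/- and DKO lines, fewer than those compared here. It describes trisomy of chromosome 15 in DKO primary leukemias that it karyotyped and, from earlier work, in E2a-/- leukemias. That raises the question whether *Myc* followed the level of its chromosome. The level of a chromosome in a line was taken as the median, over its genes that averaged 5 CPM or more, without the members, of log2(CPM + 1) relative to the median line, with the same median over autosomes subtracted. It shows differences between lines, and a gain that all 15 lines share would not appear in it. Over 393 genes, the chromosome 15 level ranged from -0.08 (DKO548) to 0.05 (DKO170.2), and it averaged 0.00125 ± 0.0378 (SD, n = 8) over the DKO lines and 0.00117 ± 0.0165 (SD, n = 7) over the others (exact permutation p = 0.997). DKO102.4, with 2.17 times the *Myc* CPM of SKO95, had a chromosome 15 level of 0.02, and SKO95 one of 0.00. Across the 15 lines *Myc* and the chromosome 15 level had a Pearson r of 0.40 (permutation p = 0.145, adjusted p = 0.233) and a Spearman rho of 0.45 (permutation p = 0.0954, adjusted p = 0.250), adjusted over the 8 relations of a member with its chromosome. The r was 0.54 without the 2 lines farthest from the median, 0.47 within DKO and 0.33 within E2a-/- lines.

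Shifts of other members' chromosomes were larger. In DKO241, chromosome 5 was at 0.41 and chromosome 11 at 0.47, while *Mxd4* on chromosome 5 was at 59.4 CPM, the lowest of the DKO lines, and *Mnt* on chromosome 11 at 45.8 CPM, below the DKO median. In contrast, SKO163.5 had the highest chromosome 6 level, 0.31, and the highest *Mxd1*, 18.2 CPM. The chromosome 6 level was also 0.23 in DKO548 and 0.16 in DKOTu3, with *Mxd1* at 12.4 and 15.9 CPM. Over all lines *Mxd1* and chromosome 6 had a Pearson r of 0.39 (permutation p = 0.146, adjusted p = 0.233) and a Spearman rho of 0.68 (permutation p = 0.00666, adjusted p = 0.0533), and r was 0.45 without the 2 farthest lines, 0.33 within DKO and 0.45 within E2a-/- lines. With genes of at least 20 CPM only, that rho was 0.38. None of the 8 relations had an adjusted p under 0.05.

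Members could also vary with a property of the library. The lines differed in the level of long against short genes, taken as the median deviation of the 1010 genes with over 10000 merged exon bases minus that of the 547 genes with under 1500. It was -1.51 on the log2 scale in DKO170.2, -0.550 in DKO79.9, -0.431 in SKO156.6 and -0.398 in DKO102.4, and reached 0.371 in DKO713. The groups did not separate, with means of -0.217 ± 0.606 for DKO (SD, n = 8) and 0.0487 ± 0.264 for E2a-/- (SD, n = 7) (exact permutation p = 0.341). *Mxd3*, with the shortest merged exons of the members, was highest where long genes were low, with a Pearson r of -0.73 (permutation p = 0.000410, adjusted p = 0.00328 over the 8 members) and a Spearman rho of -0.84 (permutation p = 0.000200, adjusted p = 0.00160). The r was -0.70 without DKO170.2 and DKO79.9, -0.84 within DKO and -0.64 within E2a-/- lines. *Mga*, with the longest exons of the members and itself 1 of the 1010 long genes, went the other way with an r of 0.66 (permutation p = 0.00617, adjusted p = 0.0247) and a rho of 0.48 (permutation p = 0.0739, adjusted p = 0.197), and r was 0.56 without the same 2 lines. Within DKO lines the rho of *Mga* was 0.16. *Max* had an r of -0.44 (permutation p = 0.0963, adjusted p = 0.257) and a rho of -0.54 (permutation p = 0.0387, adjusted p = 0.155), and a rho of -0.69 within DKO lines. *Mxd4* had an r of -0.28 (permutation p = 0.238, adjusted p = 0.391) and a rho of -0.37 (permutation p = 0.181, adjusted p = 0.362), with -0.72 within DKO lines. *Myc* had an r of -0.32 (permutation p = 0.244, adjusted p = 0.391) and a rho of -0.12 (permutation p = 0.677, adjusted p = 0.872). *Mxd3* thus went with this library-wide measure by both coefficients and *Mga* by r only, and its part in their levels was not tested.

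Among the 28 pairs of members, none had an adjusted p under 0.05 by either coefficient. *Mxd1* and *Mnt* gave the largest Pearson r, 0.69 (permutation p = 0.00330, adjusted p = 0.0924), with a rho of 0.64 (permutation p = 0.0128, adjusted p = 0.179), an r of 0.64 without DKO241 and SKO95, 0.59 within DKO and 0.78 within E2a-/- lines. *Max* and *Mxd4* gave an r of 0.26 (permutation p = 0.378, adjusted p = 0.622) and a rho of 0.68 (permutation p = 0.00720, adjusted p = 0.179). Without SKO137.1 and SKO163.5, the farthest in *Max*, r was 0.14. Without SKO132, r was 0.87 and rho 0.84 over 14 lines. Within DKO lines r was 0.75, and within E2a-/- lines, SKO132 included, 0.18. *Mnt*, the third member with an E-box in its promoter, had an r of 0.01 with *Max* (permutation p = 0.977, adjusted p = 0.990) and a rho of 0.25 (permutation p = 0.367, adjusted p = 0.684), while r was 0.55 without SKO137.1 and SKO163.5, 0.69 within DKO and -0.33 within E2a-/- lines. *Mxd4* and *Mnt* had an r of -0.00 (permutation p = 0.990, adjusted p = 0.990) and a rho of 0.06 (permutation p = 0.835, adjusted p = 0.899). Their r was 0.48 without SKO132 and SKO163.5, 0.60 within DKO and -0.05 within E2a-/- lines. *Mxd3*, whose promoter had no CACGTG, had an r of 0.52 with *Mxd4* (permutation p = 0.0309, adjusted p = 0.369). The rho of that pair was 0.56 (permutation p = 0.0310, adjusted p = 0.274). *Myc* and *Mnt* had an r of 0.42 (permutation p = 0.118, adjusted p = 0.439) and a rho of 0.53 (permutation p = 0.0464, adjusted p = 0.274). *Myc* and *Max* had an r of 0.51 (permutation p = 0.0557, adjusted p = 0.369) and a rho of 0.49 (permutation p = 0.0661, adjusted p = 0.274), with an r of 0.38 without DKO102.4 and SKO95, 0.77 within DKO and 0.41 within E2a-/- lines.

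**Figure D4:**
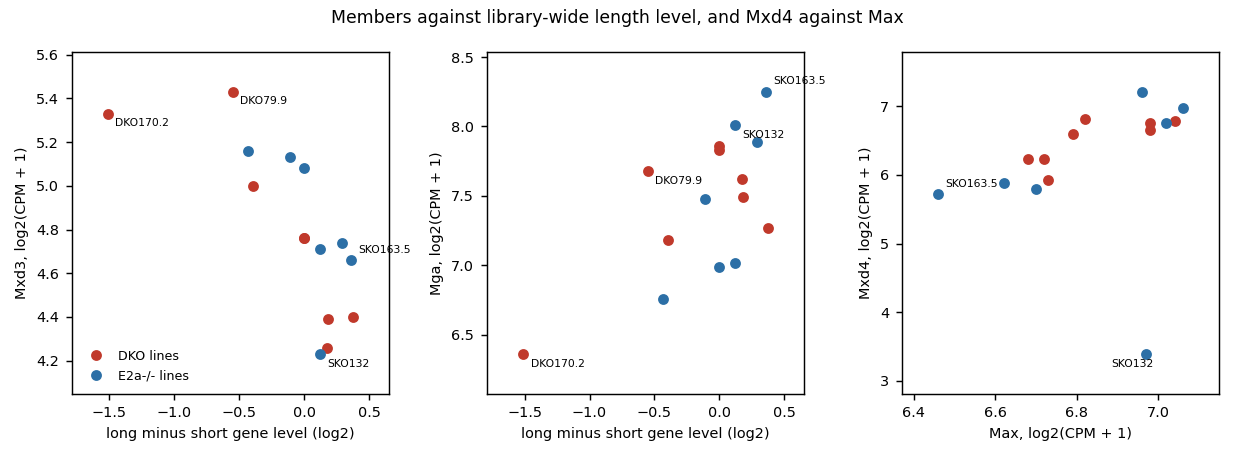
The left and middle panels plot log2(CPM + 1) of *Mxd3* and *Mga* against the level of long minus short genes in each line, and the right panel plots *Mxd4* against *Max*, 1 point per line (DKO red, E2a-/- blue). *Mxd3* tends to be lower and *Mga* higher in lines with high long-gene levels, and *Mxd4* tends to rise with *Max* apart from SKO132 at 9.49 CPM.

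The pathway around the network was described with lists of known partners and targets. Of the 130 genes of these lists that were tested, 0 passed limma's adjusted p of 0.01, beside the 0.0478% of all genes given above. DESeq2 called 3 of them, beside 1.41% of the 12543 genes that it tested, a count near that share. They were *Cdkn1a*, *Fbxw7* and *Paics*, an enzyme of purine synthesis. *Paics* had a log2 difference of 0.28 in DESeq2 (adjusted p = 0.00149) and 0.26 in limma (adjusted p = 0.142). Among ribosome biogenesis genes, the best known MYC targets, 23 of 28 had a higher mean in DKO lines, with a median log2 difference of 0.12, while 46.3% of all genes did, with a median of -0.02, and 3 of the 28 had an unadjusted p under 0.05, near the 10.2% of all genes that did. *Nop16*, a nucleolar protein, was at 66.3 ± 11.5 CPM (SD) in DKO and 52.2 ± 7.53 CPM in E2a-/- lines (log2 difference 0.33, limma adjusted p = 0.327). *Npm1*, nucleophosmin, was at 2319 ± 381 and 1912 ± 221 CPM (0.27, limma adjusted p = 0.460). On length-centred values *Nop16* was at 0.24 and *Npm1* at 0.21, and without DKO170.2 at 0.27 and 0.22. The count of 23 was not repeated on length-centred values. Of 23 metabolic targets 17 were higher in DKO lines (median 0.06). *Odc1*, the rate-limiting enzyme of polyamine synthesis, had a log2 difference of 0.36 (limma adjusted p = 0.463) and *Tfrc*, the transferrin receptor, one of -0.37 (limma adjusted p = 0.630). Of 16 targets of the cell cycle, translation and chaperones 10 were higher (median 0.10), with *Phb*, prohibitin, at 0.42 (limma adjusted p = 0.288). *Ccnd2*, cyclin D2, ran from 0.265 to 288 CPM in DKO lines and from 0 to 50.8 CPM in E2a-/- lines (2.26, limma adjusted p = 0.570).

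The mRNAs of proteins that act with or on the members are given next, and none passed limma's threshold. Of 12 coactivators of MYC, 4 were higher and 8 lower in DKO lines (median -0.03), with *Kat2a*, an acetyltransferase, at 0.21 and *Trrap*, a scaffold, at -0.18. Of 17 genes of the SIN3 corepressor 8 were higher and 9 lower (median -0.01), with *Ing1* at -0.29 (limma adjusted p = 0.447) and *Arid4b* at -0.34 (limma adjusted p = 0.590). Of 11 genes of the MGA complex 5 were higher and 6 lower (median -0.01), with *E2f6* at -0.72 (limma adjusted p = 0.566) and *Rybp* at -0.42 (limma adjusted p = 0.560). The related factors *Mlx* and *Mlxip*, 2 of 4 listed, were at 0.13 and 0.10. Of 16 genes for turnover of the MYC protein 7 were higher and 9 lower (median -0.02). Among these, *Fbxw7*, the ubiquitin ligase subunit that marks MYC and Notch for destruction, ranged from 40.8 to 54.7 CPM in DKO lines (median 47.5 CPM) and from 34.8 to 42.0 CPM in E2a-/- lines (median 38.3 CPM), a log2 difference of 0.32 with a 95% interval of 0.15 to 0.49 (exact permutation p = 0.000932, limma adjusted p = 0.140). DESeq2 called it, with an adjusted p of 0.000304, and limma and both edgeR tests did not. *Btrc*, another such subunit, was at 0.36 (limma adjusted p = 0.566). Of 6 listed genes that MYC represses with MIZ1, 1 was higher and 5 were lower in DKO lines (median -0.20). The higher one was the cell cycle inhibitor *Cdkn1a* (log2 difference 2.41, limma adjusted p = 0.0257), and *Gadd45a* was at -0.79 (limma adjusted p = 0.475). *Cdkn1a* was called by edgeR's likelihood ratio test (adjusted p = 4.16e-05) and DESeq2 (adjusted p = 1.79e-06) but not by the quasi-likelihood test (adjusted p = 0.0518). Without SKO95 limma called it (adjusted p = 0.00730).

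The correlation of each list's genes with *Myc* over the lines is given as a description. Of the 28 ribosome biogenesis genes, 27 had a positive Spearman rho with *Myc* over the 15 lines, with a median of 0.42, while 51.5% of the 9706 genes that averaged 5 CPM or more had one, with a median of 0.01. The values ran from 0.00 for *Utp20* to 0.68 for *Ddx18*. On length-centred values 28 of 28 were positive (median 0.38), and 26 to 28 were when each line was left out in turn. Within DKO lines 26 of 28 were positive, with a median of 0.52, against 51.4% of all genes. Within E2a-/- lines 17 of 28 were positive, with a median of 0.21, against 48.5%, and *Npm1* had a rho of -0.68 there. Whether the genotypes differ in this was not tested. Without DKO102.4, the line with the most *Myc*, the median over all remaining lines was 0.34. Genes of 1 list share the libraries and are not independent, so no p is given.

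Among the metabolic targets 18 of 23 had a positive rho (median 0.20), with *Odc1* the highest at 0.61. Within E2a-/- lines 12 of 23 did (median 0.04), close to the 48.5% of all genes, and the median over all lines but DKO102.4 was 0.10. Among the targets of the cell cycle, translation and chaperones 14 of 16 did (median 0.24), with *Phb2* the highest at 0.54, and within E2a-/- lines 9 of 16 (median 0.05). Without DKO102.4 their median was 0.13. Coactivators were at 7 of 12 (median 0.04), turnover genes at 9 of 16 (median 0.05) and genes of the MGA complex at 7 of 11 (median 0.19). Of the SIN3 corepressor genes 6 of 17 did (median -0.12). Of the 6 genes repressed with MIZ1, 5 had a positive rho (median 0.11), with *Cdkn1a* the highest at 0.65. As shares, these were 96.4% for ribosome biogenesis, 87.5% for cell cycle, translation and chaperones, 83.3% for the genes MYC represses, 78.3% for metabolism, 63.6% for the MGA complex, 58.3% for coactivators and 56.2% for turnover, all above the 51.5% of all genes, and 35.3% for SIN3. The shares of coactivators and turnover genes were near that of all genes, and that of *Mlx* and *Mlxip* was 50.0%. The genes MYC represses, at 5 of 6, and the MGA complex, at 7 of 11, are short lists. Whether any share differs from that of all genes was not tested.

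**Figure D5:**
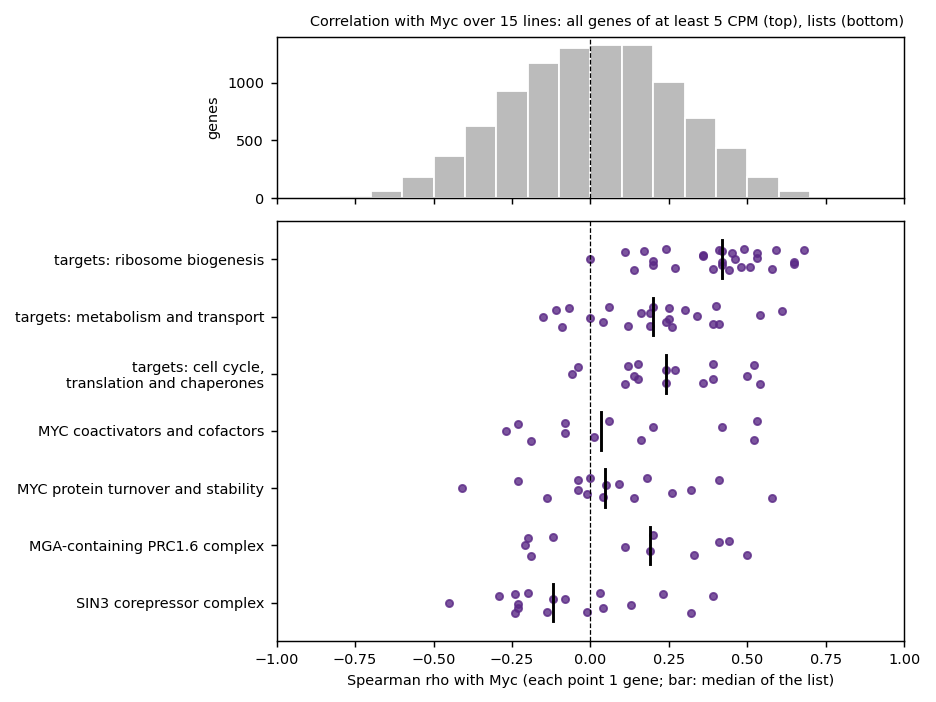
The upper panel counts all genes that averaged 5 CPM or more by their Spearman rho with *Myc* over the 15 lines, and the lower panel gives the rho of each gene of 7 lists, with the median of the list as a bar. The ribosome biogenesis genes sit right of 0, with a median of 0.42, and the SIN3 corepressor genes are centred left of 0 at -0.12.

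Among 9574 genes, those most like *Myc* over the 15 lines were *H2-Q10* (rho 0.90, 6.17 to 44.4 CPM) and *H2-Q1* (0.88, 1.70 to 468 CPM), class I genes of a multigene family between whose copies reads may be split, followed by the metallothionein *Mt2* (0.84), which had a median of 0 CPM, reached 46.7 CPM in DKO170.2, and had an r of 0.45 and a length-centred rho of 0.59. The lowest rho was that of *Zmat1* (-0.80, 5.87 to 16.4 CPM) and then *Tecpr1* (-0.78, 44.9 to 141 CPM). For *Mxd4*, the most alike were *Arglu1* (0.85), *Riox1* (0.84) and *Bax* (0.83), each lowest in SKO132, and the most opposed *Sympk* (-0.88, length-centred -0.45) and *Pacsin2* (-0.87, length-centred -0.85). Without SKO132 the 5 values lay at 0.79 to 0.82 and at -0.85. They are the extremes of many genes over 15 lines, and no test is given.

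The most similar lines, SKO156.6 and SKO186.5 (Spearman rho of 0.987 over the genes, against 0.969 for the next pair), were alike in *Myc*, at 342 and 343 CPM, but not in *Mga*, at 107 and 237 CPM, or in *Mxd4*, at 107 and 147 CPM. Their counts differed by more than sampling noise, with a chi-square of 57.8 per degree of freedom over 11403 genes, so they are not copies of 1 library. Whether they came from 1 leukemia is not given in the labels, and results with the pair averaged are among the alternatives.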

How the data were processed

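RNA was sequenced by the authors from 15 leukemia lines, 1 library each, 8 DKO and 7 E2a-/-, grouped by the genotype in the labels. Per the labels and the study's methods, reads were trimmed with Trimmomatic (0.33), aligned with TopHat2 (2.1.0) to mm10 and counted per gene with HTSeq (0.6.1), and the deposited values are CPM that the authors computed with edgeR from reads assigned to genes. Dividing by the lowest value above 0 of a line gave whole reads (within 0.01) for 100% of values. Depth was 4847970 to 21681586 reads per line, and 3 reads were worth 0.618 CPM in DKO79.9. Replicates are separate lines.

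All 12545 genes were fitted on the log2(CPM + 1) scale by limma (3.58.1, R 4.3.3), with a variance trend, two-sided, with Benjamini-Hochberg adjustment over all of them and a threshold of 0.01. Fold changes of low genes are understated on this scale. Permutation tests of a single difference were exact over all splits into 8 and 7, with 0.000155 the smallest p, and those of correlations used 100000 permutations (numpy 2.4.6). Other settings were a pseudocount of 0.1 or 2 CPM, only genes averaging 1 CPM or more, TMM and median-of-ratios scaling, no trend, a robust trend, edgeR (4.0.16) and DESeq2 (1.42.0) on recovered reads, an adjusted p under 0.05, each line left out, and SKO156.6 and SKO186.5 averaged. Length-centred values (20 bins of merged exon length), merged exons of GENCODE M21 in place of the planned listed width, pairs of members and other settings for the counts of positive rho were added after seeing the data. Merged exon lengths were matched for 97.0% of genes. Of 12172 genes, 190 start within 1 base of their GRCm38 position in the table, so positions come from the annotation. The tests were tested on simulated data.

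All members were named, with 2 genes per list by largest fold change among those of at least 5 CPM where none passed. Also named were the 3 most and 2 least alike genes of *Myc* and of the member with the widest range over all 15 lines. *Fbxw7* and *Cdkn1a* under other tools, and single genes named for the highest or lowest rho of a list, were chosen after their values were seen. The members and lists were chosen with earlier results of these data known. The planned correlation of *Myc* with *Mycn* was not run, as *Mycn* is not analysed here. p-values measure the spread between lines.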

Additional observations from a re-analysis of the deposited data

Results flagged for a closer look

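In each genotype, the highest or lowest line of a measure was compared with the others by Dixon's criterion (its gap to the nearest line over the range of the group). This was done for 54 sets of values, of which chance alone gives about 1 in 20, or 2.70, if the sets were independent, and 7 stood out. The sets were not independent, as each member entered both as CPM and as log2(CPM + 1), so 2.70 is only a rough guide. In 2 of the 7 a member itself stood out, on the log2(CPM + 1) scale and not as CPM. *Mxd4* in SKO132 was at 3.39, against 5.72 to 7.21 in the other E2a-/- lines, and *Mga* in DKO170.2 was at 6.36, against 7.18 to 7.86 in the other DKO lines. DKO170.2 is also the line with the lowest level of long against short genes, -1.51.

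The other 5 were levels of a member's chromosome, relative to the autosomes of the line. Chromosome 5, which holds *Mxd4*, was at 0.413 in DKO241 against -0.0612 to 0.0156 in the other DKO lines, and chromosome 11, which holds *Mnt*, at 0.469 against -0.0285 to 0.0961. Chromosome 6, with *Mxd1*, was at 0.307 in SKO163.5 against -0.0469 to -0.00570 in the other E2a-/- lines. The shifts of chromosome 19, with *Mxi1*, to -0.0593 in SKO163.5 and of chromosome 15, with *Myc*, to -0.0792 in DKO548 were small.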

How the results depend on the processing

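Of 351 alternative values, 315 kept their direction, their side of the threshold or, for counts, stayed within 1.5 times, and no member was called under any alternative. Differences very close to 0 were counted as kept whatever their sign. An example is the chromosome 15 difference, 7.28e-05 in the main setting and -0.00452 without SKO163.5. Over all genes, 6 were called by limma, 1 by edgeR's quasi-likelihood test, 84 by its likelihood ratio test and 177 by DESeq2, 19 at an adjusted p under 0.05, 13 without SKO132 and with SKO156.6 and SKO186.5 averaged, and 3 (without DKO170.2) to 17 (without SKO132) with each line left out. The DKO minus E2a-/- differences near 0 changed sign. Length-centred values gave 0.01 for *Mxd1* and 0.06 for *Mga*, and *Mxd3* was at 0.03 in the quasi-likelihood test, 0.02 in the likelihood ratio test and 0.01 in DESeq2. With each line left out, *Max* ran from -0.04 to 0.06, *Mxd1* from -0.17 to 0.01, *Mxd3* from -0.12 to 0.05, *Mga* from -0.19 to 0.08 and the chromosome 15 difference from -0.00781 to 0.0111. In the same fits *Myc* ran from 0.15 (without DKO102.4) to 0.28, with an unadjusted p under 0.05 only without SKO137.1, *Mxd4* from 0.11 (without SKO132) to 0.75, *Mxi1* from -0.38 to -0.14 and *Mnt* from -0.16 to -0.01. Positive rho with *Myc* fell within the 7 E2a-/- lines to 17 of 28 ribosome biogenesis, 12 of 23 metabolic and 9 of 16 cell cycle, translation and chaperone genes. Otherwise the cause of these changes was not tested. The number of lines limits the precision, since 0.54 for *Mxd4* had an interval down to -0.39. No paired analysis was possible because the line numbers are not shared between the genotypes. The correlation of *Myc* with *Mycn* was not run.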
